A study of Mus musculus with 6 samples.

Results

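The genes described here encode the core machinery of autophagy. 40 genes were taken from a fixed list, and all of them were found by symbol among the 55487 genes of the deposited tables. They were divided by role into 6 initiation genes, 12 nucleation genes (6 of the lipid kinase complex and 6 that supply or shape membrane), 16 conjugation genes (11 enzymes and 5 modifiers), 5 cargo receptor genes and 1 fusion tether gene. The cells were naive CD4+ T cells isolated from spleen. The mice were wild type, of strain C57BL6/J, either without treatment (3 libraries) or after in vivo treatment with rapamycin (3 libraries). Rapamycin binds the immunophilin FKBP12 and the complex inhibits mTOR complex 1. Dose, duration, age and whether each library came from its own mouse are not given in the sources used here, and a p-value here reflects only how much the 3 libraries of a group vary, part of which may be technical. The comparison asks how mTOR inhibition changes naive CD4+ T cells, and here how it changes messenger RNA of the autophagy genes.

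Autophagy encloses cytoplasm in a double membrane, the autophagosome, which fuses with lysosomes so that its contents are degraded and their building blocks reused. When nutrients are plentiful, mTOR complex 1 phosphorylates the ULK1 kinase complex and holds it inactive, and inhibition of mTOR releases this brake at the level of protein activity. In T cells autophagy is known for its part in the survival of resting cells and in the removal of mitochondria as thymic emigrants mature. Messenger RNA levels of these genes are a different quantity from autophagic flux, which was not measured.

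Total expected counts, RSEM's estimates of reads per gene, ran from 9712671 to 11393317 in the untreated and from 8757280 to 9315370 in the rapamycin libraries, so that 3 counts corresponded to between 0.263 and 0.343 CPM (counts scaled to library size). Over 9979 genes whose log2 CPM averaged 2 or more, fold changes followed gene length (Spearman's rho = 0.51, taken across genes, not replicates). Values with a length correction are therefore given for the genes below. Over the 39 autophagy genes tested rho was 0.23, but without that cut on CPM, so scarce genes are included and the 2 values are not like for like. The median length of these 39 genes was 2947 bases against 2365 over all genes tested. Among the defining genes of the labelled cells, Cd4 had between 704.5 and 728 CPM in untreated and between 676 and 693 CPM in rapamycin libraries. Cd3e, a subunit of the T cell receptor complex, had between 353 and 359.9 CPM without and between 344 and 349.8 CPM with rapamycin. Ccr7, the homing receptor of naive cells, had between 557 and 572 CPM without and between 518 and 522 CPM with rapamycin. In the same libraries 10 myeloid markers summed to between 79.2 and 82.7 CPM without and between 41.3 and 44.8 CPM with rapamycin, and 4 plasma cell markers to between 30.4 and 31.8 and between 1.24 and 2.20 CPM. The 6 NK cell markers summed to between 22.6 and 24.4 CPM without and between 17.5 and 19.9 CPM with rapamycin, but went both ways, Gzma from 7.79 to 2.18 CPM and Nkg7 from 4.64 to 6.82 CPM on average. The pair of CD8 genes summed to between 19.1 and 20.5 and between 87.9 and 91.0 CPM. Markers of activated or memory cells summed to between 102 and 108 CPM without and between 70.6 and 73.7 CPM with rapamycin. Within that list Il2ra went the other way (1.94 and 3.12 CPM on average), with overlapping groups and no call. Summed B cell markers overlapped, with between 532 and 568 CPM in untreated and between 518 and 549 CPM in rapamycin libraries. The 3 regulatory T cell markers summed to between 8.39 and 10.6 CPM without and between 13.7 and 17.2 CPM with rapamycin. Of these, Ikzf2 and Ctla4 were called higher. Foxp3 (1.65 and 1.92 CPM on average) had overlapping groups and was not called. Of 4 platelet markers, summing to between 1.90 and 3.66 CPM without and between 4.29 and 5.30 CPM with rapamycin, nearly all of the sum was Itga2b (2.69 and 4.65 CPM on average), and Pf4 and Ppbp were at 0 in the rapamycin libraries. Erythroid markers summed to between 7.70 and 11.1 CPM without and between 2.51 and 2.90 CPM with rapamycin. The part of these other cells in the results below was not tested, and in bulk RNA fewer cells of a type cannot be told apart from less RNA per cell.

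With rapamycin the genes of the initiation complex and of several cargo receptors were higher, while most genes of the lipid kinase complex and of the conjugation systems did not pass the test. Rb1cc1, the scaffold of the initiation complex, rose by 1.52-fold, the membrane genes Wipi2 and Atg2a by 1.45-fold and 1.44-fold, and the cargo receptor genes Calcoco1 and Tax1bp1 by 1.30-fold each. The lipid-anchored modifier gene Gabarapl2 and the conjugation gene Atg5 were called lower, at 0.835-fold and 0.839-fold of the untreated level. Neither call held under every alternative processing, and that of Gabarapl2 was lost with the length correction. By edgeR's quasi-likelihood test 16 of the 39 members tested were higher and 2 lower at an adjusted p under 0.05. That is 41.0% higher and 5.13% lower, beside 24.1% and 23.3% of all 11950 genes tested. In either direction 18 of 39 were called, a share near the 47.4% of all genes. On log2(TPM + 1) with limma, 15 members were higher and 2 lower, and the split over all genes moved from 2874 higher and 2785 lower to 2720 and 1151. A rise of at least 0.3 on the log2 scale was found for 12 members, or 30.8%, beside 13.0% of all genes. Both counts include Gabarapl1, which passed the filter on low counts only through the rapamycin group, where it is high, and are 15 and 11 without it. They are descriptions and support nothing about the list. The median log2 fold change, rapamycin over untreated, was 0.10 over the members and −0.01 over all genes. With the length correction 16 members were again higher (all genes 20.2%) and 4 lower (all genes 18.2%; in either direction 38.4%), with a median of 0.07. 12 members were higher both ways and 1 was lower both ways. Of all 11950 genes, 3646 were called both ways in the same direction and 119 in opposite directions. Gabarapl1 is included in these 16 and these 12 as well, with the same limit. Ulk2, Ambra1 and Atg2b were higher without the correction and not called with it, while Epg5, higher without it, was called lower with it (−0.15, edgeR adjusted p = 0.0137). With the correction only, Becn1, Atg4b, Map1lc3b and Sqstm1 were higher. In CPM, all rapamycin libraries lay above all untreated ones for 19 members, Gabarapl1 among them, and below for 5. Over all genes these shares were 26.9% and 26.8% (53.8% either way).

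**Figure D1:**
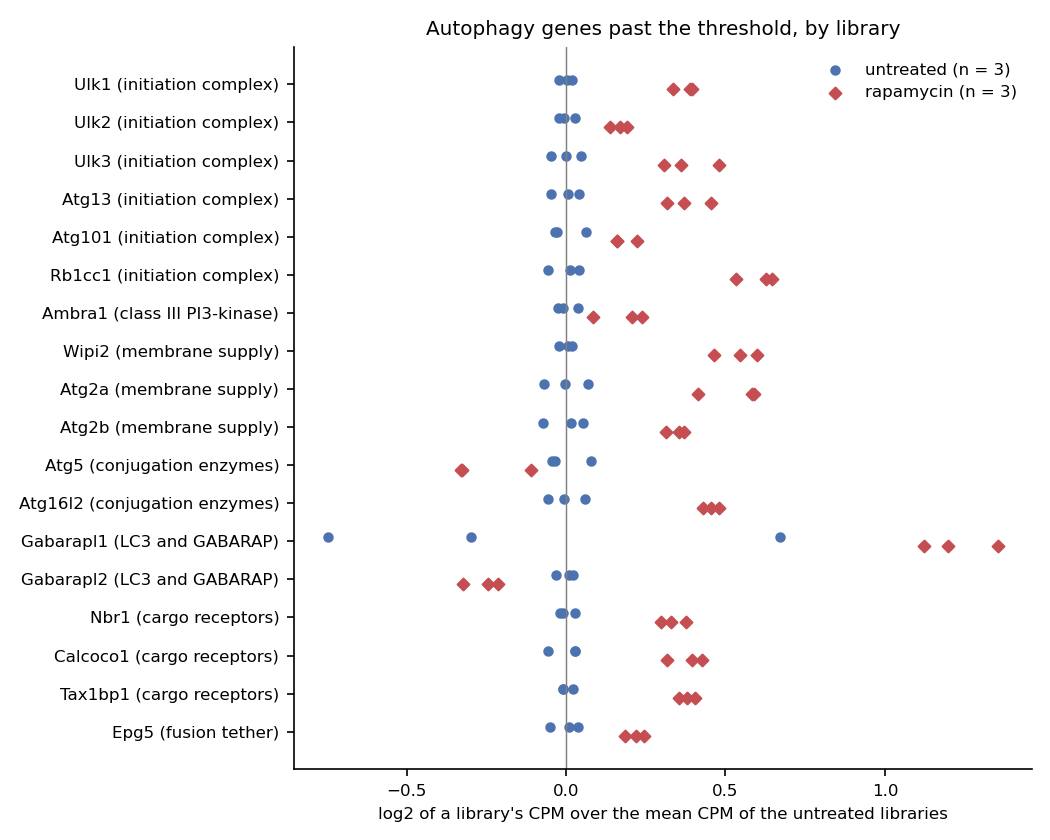
Each row is 1 of the 18 autophagy genes past the threshold, and the horizontal axis is the log2 ratio of a library's CPM to the mean of the 3 untreated libraries (blue circles, untreated; red diamonds, rapamycin; 1 point per library). In each of these genes the groups are apart, 16 to the right and 2 (Atg5 and Gabarapl2) to the left of the untreated libraries. The untreated libraries of Gabarapl1, which passed the filter on low counts only through the rapamycin group, spread most widely, and Epg5 was called lower (−0.15) after the length correction.

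The initiation complex comprises a ULK kinase, the scaffold FIP200 encoded by Rb1cc1, and the partners ATG13 and ATG101. All 6 of its genes rose (beside 24.1% of all genes), and 5 of them rose with the length correction as well (beside 20.2%). Their median log2 fold change was 0.38, or 0.34 with the correction. Summed over the 6 genes, TPM (a level scaled for transcript length and library size) went from 268 ± 12.3 to 363 ± 13.6 (SD, n = 3), and the groups did not overlap. On the TPM scale the median of all genes tested was itself shifted upward by 0.09 in log2 terms.

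Rb1cc1 (ENSMUSG00000025907, GRCm38 chromosome 1, 6206197 to 6276648), whose product FIP200 holds the complex together, had 91.1, 85.2 and 89.4 CPM in the untreated and 138, 137 and 128 CPM in the rapamycin libraries. Every rapamycin library was far above every untreated one, a log2 fold change of 0.60 ± 0.04 (SE; edgeR adjusted p = 5.0e-18; length-corrected 0.54). Ulk1 (ENSMUSG00000029512, chromosome 5, 110784488 to 110810097), the kinase gene whose product starts autophagosome formation, had 47.7, 46.3 and 47.1 CPM without and 61.6, 59.3 and 61.9 CPM with rapamycin. Its libraries were tight within each group and well apart between groups (0.37 ± 0.06, edgeR adjusted p = 7.3e-07, length-corrected 0.30). Atg13 (ENSMUSG00000027244, chromosome 2, 91674618 to 91710576), which links the kinase to FIP200 and is itself an mTOR substrate, had 59.0, 60.6 and 56.9 CPM without and 76.1, 80.6 and 73.2 CPM with rapamycin. Again no library of one group reached the other (0.38 ± 0.06, edgeR adjusted p = 5.6e-08, length-corrected 0.32).

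Ulk3, a less studied relative of Ulk1, had 42.3, 39.6 and 40.9 CPM in the untreated and 57.0, 52.6 and 50.6 CPM in the rapamycin libraries. The groups were apart with more spread under rapamycin (0.38 ± 0.07, edgeR adjusted p = 2.6e-06, length-corrected 0.52). With offsets from the deposited effective lengths the call was lost (0.33, adjusted p = 0.0813). Atg101, which stabilises ATG13, rose by less, from 93.2 ± 3.48 to 106 ± 2.66 CPM (0.18 ± 0.05, edgeR adjusted p = 9.9e-04), and by 0.37 with the length correction (gene length 1212 bases). Ulk2, the close paralog of Ulk1, went from 57.2 ± 0.977 to 64.2 ± 1.16 CPM (0.17 ± 0.06, edgeR adjusted p = 0.0145). With the correction its value was −0.05, and the call was lost in all under 11 of 20 alternatives. The log2 ratio of Ulk1 to Ulk2 in TPM was 0.61, 0.23 and 0.59 in the untreated and 0.75, 0.73 and 0.61 in the rapamycin libraries, so that the groups did not overlap but nearly met.

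**Figure D2:**
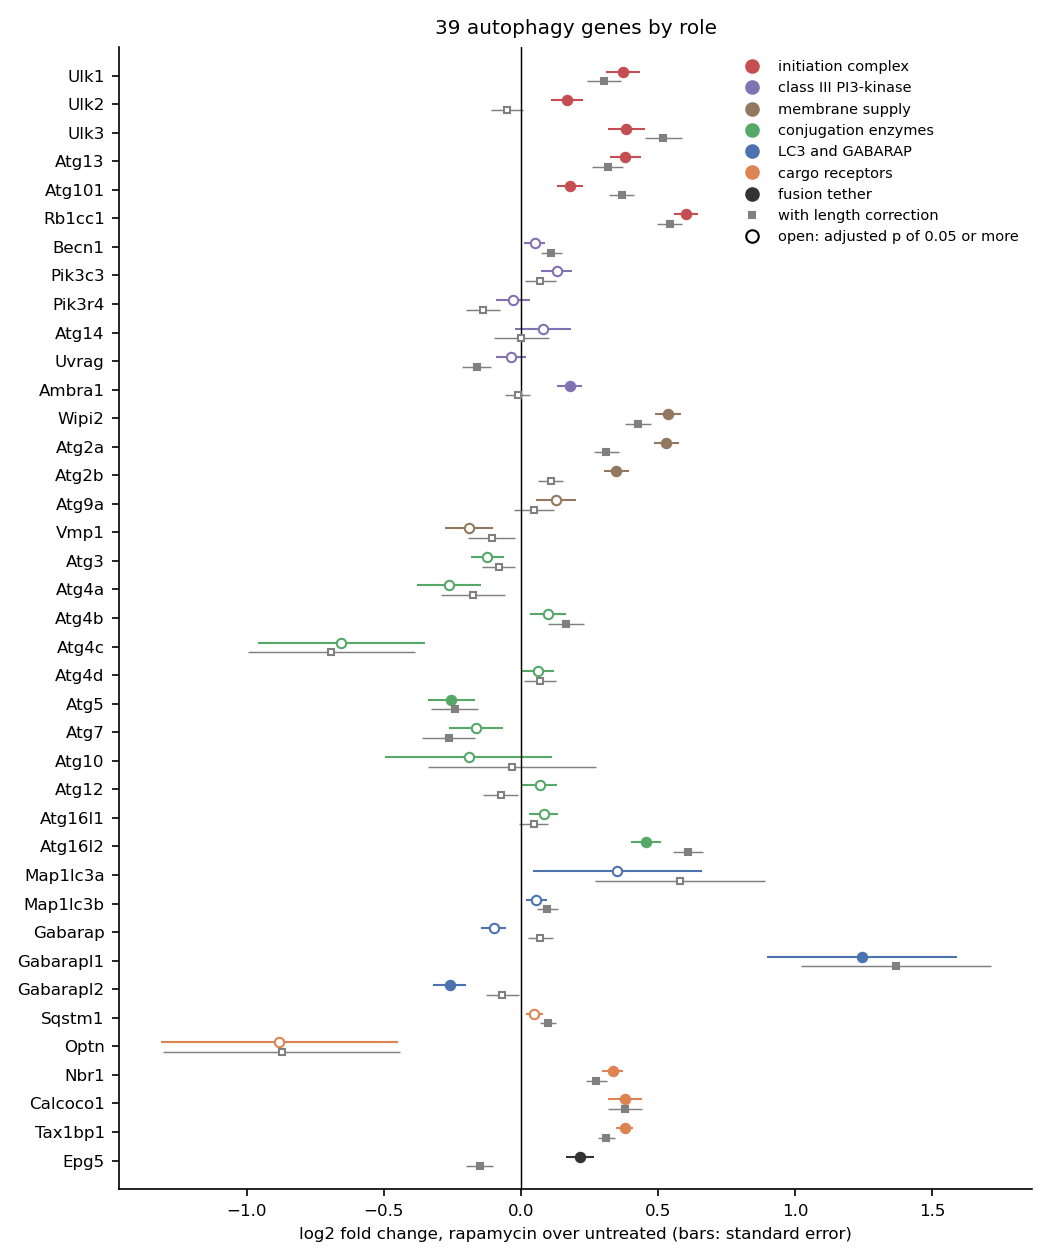
Log2 fold change of each of the 39 tested autophagy genes (coloured circles, by role) with its standard error as a bar, above the value after length correction (grey squares); filled symbols passed an adjusted p of 0.05. The 6 initiation genes lie between 0.17 and 0.60 before correction, while the conjugation enzymes run from −0.66 to 0.46.

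The nucleation step begins with the class III phosphatidylinositol 3-kinase, in which the kinase VPS34 (Pik3c3), its anchor VPS15 (Pik3r4) and Beclin 1 (Becn1) combine with either ATG14 for autophagosome formation or UVRAG for endosomal traffic, and AMBRA1 regulates the complex. Of these 6 genes 1 rose (beside 24.1% of all genes) and the other 5 did not pass the test, with a median log2 fold change of 0.07. Ambra1 had 97.4, 98.4 and 102 CPM without and 105, 117 and 114 CPM with rapamycin. The groups lay close but apart (0.18 ± 0.05, edgeR adjusted p = 9.3e-04), and the length-corrected value was −0.01, not called. Becn1, the most abundant of the complex in TPM, had 143, 150.4 and 149 CPM in untreated and 149.6, 147 and 161 CPM in rapamycin libraries. These overlapped, with a log2 fold change of 0.05 that was not called (edgeR adjusted p = 0.292), and it passed the test with the length correction (0.11, edgeR adjusted p = 0.0175). Pik3c3 missed the threshold narrowly at 0.13 ± 0.06 (edgeR adjusted p = 0.0508), and passed it with RLE factors (0.13, adjusted p = 0.0442). Pik3r4, Uvrag and Atg14 had values of −0.03, −0.04 and 0.08, and Uvrag was lower in the length-corrected fit (−0.16, edgeR adjusted p = 0.0134). Summed TPM of the 6 genes overlapped between groups, at 235 ± 7.02 and 246 ± 18.9 (SD, n = 3).

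Among the genes that act on the growing membrane, Wipi2 and both Atg2 genes rose, 3 of 5 tested (beside 24.1% of all genes). With the length correction 2 of 5 rose (beside 20.2%), Wipi2 and Atg2a. WIPI proteins read the lipid that the kinase complex makes, ATG2 proteins carry lipid into the membrane, and ATG9A and VMP1 move lipid between the leaflets of a membrane. Wipi2 (ENSMUSG00000029578, chromosome 5, 142627698 to 142670588), whose product recruits the conjugation enzymes, had 77.0, 78.5 and 79.2 CPM without and 108, 114 and 119 CPM with rapamycin. The untreated libraries lay close together and all rapamycin libraries lay higher (0.54 ± 0.05, edgeR adjusted p = 6.5e-15, length-corrected 0.43). Atg2a (ENSMUSG00000024773, chromosome 19, 6241668 to 6262335) had 92.8, 88.6 and 97.4 CPM without and 124, 139 and 139.7 CPM with rapamycin. Its rapamycin replicate 1 was the lowest of its group but above every untreated library (0.53 ± 0.05, edgeR adjusted p = 7.3e-15, length-corrected 0.31). Atg2b had 87.8, 93.3 and 95.7 CPM without and 118, 115 and 119 CPM with rapamycin. This rise of 0.35 ± 0.05 (edgeR adjusted p = 2.4e-09) shrank to 0.11 with the length correction (adjusted p = 0.0512; gene length 5941 bases). The log2 TPM ratio of Atg2a to Atg2b was 0.15, 0.04 and 0.10 without and 0.30, 0.42 and 0.26 with rapamycin, with no overlap.

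Of the other membrane genes, Atg9a and Vmp1 did not pass the test and Wipi1 was not tested. Atg9a had 36.2, 36.3 and 39.05 CPM without and 38.8, 41.6 and 41.6 CPM with rapamycin. Vmp1 went from 32.1 ± 3.91 to 28.3 ± 0.396 CPM, and both genes had overlapping groups. Vmp1 was called lower with offsets from effective lengths (−0.63, adjusted p = 0.00586) and with limma on log2(TPM + 1) (−0.49, adjusted p = 0.0298). Its deposited mean transcript length was 1610, 1373 and 1626 bases in untreated and 1867, 1963 and 2105 bases in rapamycin libraries. Without untreated replicate 3, the lowest of its group, the count-based fit also called Vmp1 lower (−0.28, adjusted p = 0.00986). Wipi1, the relative of Wipi2, was near the detection limit, with 0.173, 0.380 and 0.102 CPM without and 0.437, 0.677 and 0.811 CPM with rapamycin. It did not pass the filter on low counts and was the only member not tested.

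The ATG12 and LC3 conjugation systems resemble ubiquitin attachment. ATG7 activates both modifiers, ATG10 joins ATG12 to ATG5, ATG16L1 or its relative ATG16L2 binds that pair, ATG3 attaches LC3 and GABARAP proteins to a membrane lipid, and ATG4 proteases mature and recycle them. Of the 11 enzyme genes 1 rose (beside 24.1% of all genes), 1 fell (beside 23.3%) and 9 did not pass the test (median −0.12, length-corrected −0.07). Atg16l2 (ENSMUSG00000047767, chromosome 7, 101263034 to 101302251) had 55.9, 60.6 and 57.9 CPM in untreated and 78.3, 81.0 and 79.7 CPM in rapamycin libraries. The groups were well apart (0.46 ± 0.06, edgeR adjusted p = 2.7e-10), and the rise was 0.61 with the length correction. Atg16l1, the paralog in the canonical complex, had 70.7, 71.3 and 75.0 CPM without and 76.0, 80.6 and 72.9 CPM with rapamycin. Its groups overlapped (0.08 ± 0.05, edgeR adjusted p = 0.210). Per length Atg16l2 was the more abundant of the pair, and the log2 TPM ratio of Atg16l1 to Atg16l2 moved from −0.95 ± 0.189 to −1.33 ± 0.0878 (SD, n = 3) without overlap.

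Atg5, the acceptor of ATG12, had 34.2, 31.4 and 31.6 CPM without and 25.8, 30.0 and 25.8 CPM with rapamycin. Its rapamycin replicate 2 lay just under the untreated libraries and the others well below (−0.25 ± 0.09, edgeR adjusted p = 0.0116; length-corrected −0.24). The call was lost under 7 of 20 alternatives, among them DESeq2 (−0.25, adjusted p = 0.0590) and without untreated replicate 1 (−0.22), rapamycin replicate 1 (−0.21) or rapamycin replicate 3 (−0.22). Atg7, at 23.8 ± 1.46 and 21.2 ± 0.706 CPM, had every rapamycin library below every untreated one, but did not pass the test before the length correction (−0.16, edgeR adjusted p = 0.167) and passed it after (−0.26, adjusted p = 0.0267). Atg3 and Atg12 had log2 fold changes of −0.12 and 0.07. Of the protease genes, Atg4b and Atg4d, both between 46.6 and 66.3 CPM in all libraries, had values of 0.10 and 0.06, Atg4a −0.26 (edgeR adjusted p = 0.0590) and the scarce Atg4c −0.66 ± 0.30 (edgeR adjusted p = 0.0700). Atg4b was called higher after the length correction (0.16, adjusted p = 0.0408). Atg4d is uncertain, since 19.3% of its exonic bases lie opposite exons of Kri1, which had 131 CPM in each group, and whether the counting used strand is not given in the sources used here. For the other members, overlaps with genes above 3 CPM covered at most 2.85% of exonic bases. Atg10 was also scarce, with 2.76 ± 0.633 and 2.42 ± 0.774 CPM.

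The letters TCACGTG, part of the element that the lysosomal regulator TFEB binds, stood on either strand in the promoter windows of 3 members, and the 30 bases around these matches are shown because the genes, Atg3, Atg7 and Atg14, belong to the conjugation and kinase steps, where few genes passed the test. Windows run from 250 bases before to 50 after a RefSeq start site on GRCm38.p6, and 39 windows were found for 33 of the 40 members. Capitals mark the motif, read as written or as its reverse complement, and the second Atg3 site matches both ways. Each line reads 5′ to 3′ on the gene's strand. The start sites used for Atg7 and Atg14 lie inside the annotated genes, whose 5′ ends are at 114643097 and 47570649.
Atg3, chr16:45158723-45158752, plus strand, motif starting 95 bases before the start site: gcctccttttgTCACGTGtcctgggagagt
Atg3, chr16:45158746-45158775, plus strand, motif starting 72 bases before the start site: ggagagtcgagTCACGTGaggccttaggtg
Atg7, chr6:114670952-114670981, plus strand, motif starting 133 bases before the start site: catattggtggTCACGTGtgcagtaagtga
Atg14, chr14:47568417-47568446, minus strand, motif as its reverse complement across the start site: aaacaaaatccCACGTGActggccctgagc
The match rate was 7.69% of the members' windows and 3.77% of all 32851 windows. The shorter E-box CACGTG, which every TCACGTG contains, was in 10.3% of the members' and 7.15% of all windows, adding Atg5. TGATGCA, part of an element bound by ATF4, was found in Optn and Vmp1 (5.13% of the members' and 3.15% of all windows), and the FOXO motif GTAAACA in 0 of 39 (3.65% of all windows). None of the 14 genes that rose and had a window held any of these motifs there, which says only that these letters are not in these 300 bases. Becn1, Map1lc3a, Atg12, Rb1cc1, Epg5, Atg16l1 and Pik3c3 had no entry.

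The LC3 and GABARAP proteins are the modifiers attached to the autophagosome membrane, where they bind cargo receptors. 1 of their 5 genes was called higher (beside 24.1% of all genes), a scarce one whose entry into the test depended on the rapamycin group. Among the 5 genes 1 fell (beside 23.3% of all genes). Their summed TPM was 324 ± 2.22 in untreated and 323 ± 8.06 in rapamycin libraries (SD, n = 3), with overlapping groups. Gabarapl1 (ENSMUSG00000030161, chromosome 6, 129533160 to 129542346) was scarce, with 1.04, 0.761 and 2.03 CPM in untreated and 3.27, 2.93 and 2.78 CPM in rapamycin libraries. All rapamycin libraries were above all untreated ones, with a log2 fold change of 1.24 ± 0.35 (length-corrected 1.37). The gene passed the filter on low counts only through the rapamycin group, so the p of that fit is not given. With no filter on low counts, over 21402 genes, the value was 1.22 and was called (edgeR adjusted p = 0.00309). With offsets from effective lengths the value was 0.52 and not called (adjusted p = 0.248), while the deposited mean transcript length was 952, 1041 and 1614 bases in untreated libraries and 1820 bases in each rapamycin library. Without untreated replicate 3, the highest of its group, the value was 1.71.

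Gabarapl2, also called GATE-16, had 64.9, 63.2 and 65.5 CPM in untreated and 54.5, 51.5 and 55.6 CPM in rapamycin libraries. No library of the rapamycin group reached the untreated ones (−0.26 ± 0.06, edgeR adjusted p = 2.1e-04), but with the length correction the value was −0.07, not called (gene length 1192 bases). Gabarap had 111, 105 and 105 CPM without and 103, 97.7 and 99.2 CPM with rapamycin, all of the latter lower. Map1lc3b, the usual marker of autophagosomes, went from 129 ± 3.56 to 134 ± 1.57 CPM. The log2 fold changes of Gabarap and Map1lc3b, −0.10 and 0.06, were not called, and Map1lc3b was called after the length correction (0.10, adjusted p = 0.0468). Per length, Gabarap made up 41.5% ± 0.555 of the subset's TPM without and 40.9% ± 0.203 with rapamycin, and these overlapped. The share of Map1lc3b was 28.9% ± 1.66 without and 32.1% ± 0.692 with rapamycin, and that of Gabarapl2 was 27.9% ± 1.38 and 24.6% ± 0.847, each without overlap (SD, n = 3). These shares do not include the length correction, and Map1lc3b, at 2065 bases, is longer than Gabarapl2. Map1lc3a (0.35 ± 0.31, edgeR adjusted p = 0.367) and Gabarapl1 made up a small remainder, the highest mean share being 1.62% for Map1lc3a under rapamycin.

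**Figure D3:**
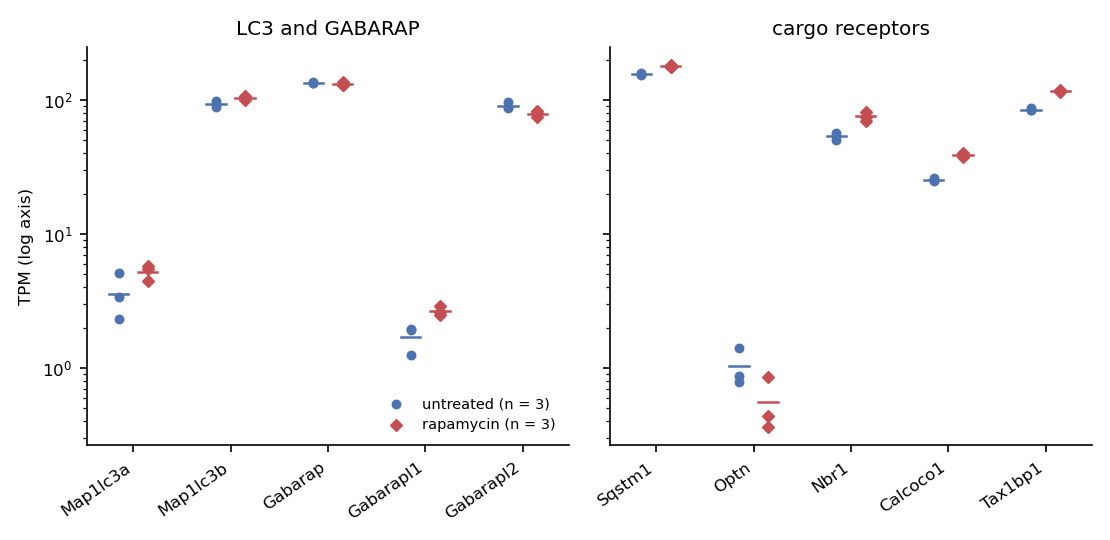
TPM of the 5 modifier genes (left) and 5 cargo receptor genes (right) in each library on a log axis, with untreated libraries as blue circles, rapamycin libraries as red diamonds and the mean of each group as a line. Gabarap, Map1lc3b and Gabarapl2 hold the upper level among the modifiers, Sqstm1 is the most abundant receptor, and Nbr1, Calcoco1 and Tax1bp1 are higher in every rapamycin library.

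Cargo receptors tie ubiquitin-marked proteins or organelles to LC3 and GABARAP. 3 of their 5 genes rose (beside 24.1% of all genes) and the rest did not pass the test (median 0.33, length-corrected 0.28). Their summed TPM went from 322 ± 5.73 to 411 ± 7.44 (SD, n = 3) without overlap. Tax1bp1 (ENSMUSG00000004535, chromosome 6, 52713729 to 52766780), a receptor for protein aggregates that also restrains inflammatory signalling, had 200.4, 196 and 196 CPM in untreated and 252, 257 and 261 CPM in rapamycin libraries. The separation was many times the spread within either group (0.38 ± 0.03, edgeR adjusted p = 8.8e-17, length-corrected 0.31). Nbr1 (ENSMUSG00000017119, chromosome 11, 101552149 to 101581951), which acts beside p62, had 123, 122 and 126 CPM without and 152, 161 and 155.5 CPM with rapamycin. Its groups were likewise far apart (0.33 ± 0.04, edgeR adjusted p = 5.6e-11, length-corrected 0.28). Calcoco1 (ENSMUSG00000023055, chromosome 15, 102706777 to 102722178), a receptor for the endoplasmic reticulum and Golgi, had 46.3, 46.3 and 43.7 CPM without and 61.0, 56.6 and 59.8 CPM with rapamycin. All rapamycin libraries lay above the untreated ones, and the value was nearly the same with and without the correction (0.38 ± 0.06 and 0.38, edgeR adjusted p = 9.2e-07).

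Sqstm1, which encodes p62, had the highest mean TPM of the 40 genes over the 6 libraries, at 168. It had 211, 207 and 212 CPM in untreated and 217, 218 and 217 CPM in rapamycin libraries. The groups did not overlap, but the log2 fold change of 0.05 ± 0.03 did not pass the test (edgeR adjusted p = 0.190). It did pass with the length correction (0.10, adjusted p = 0.00741) and with limma on log2(TPM + 1) (0.19, adjusted p = 0.00644). Optn, the receptor optineurin, was close to the detection limit, with 1.30, 1.9975 and 1.53 CPM without and 0.655, 0.564 and 1.39 CPM with rapamycin. It passed the filter only through the untreated group, its groups overlapped, and its value of −0.88 ± 0.43 was not called (edgeR adjusted p = 0.0885). Without rapamycin replicate 3, the highest of its group, the value was −1.38 and was called lower. That call rests on leaving out the library that overlapped and on the group that let Optn pass the filter. The p of that fit is therefore not given.

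Epg5 encodes a tether that joins autophagosomes to late endosomes and lysosomes. It had 76.3, 77.8 and 73.1 CPM in untreated and 88.1, 86.1 and 89.8 CPM in rapamycin libraries. Every rapamycin library was higher (0.22 ± 0.05, edgeR adjusted p = 3.0e-04), and its gene length of 9469 bases was the greatest among the members. After the length correction the direction turned, with a value of −0.15 that was also called (adjusted p = 0.0137), so no direction is given for Epg5.

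**Figure D4:**
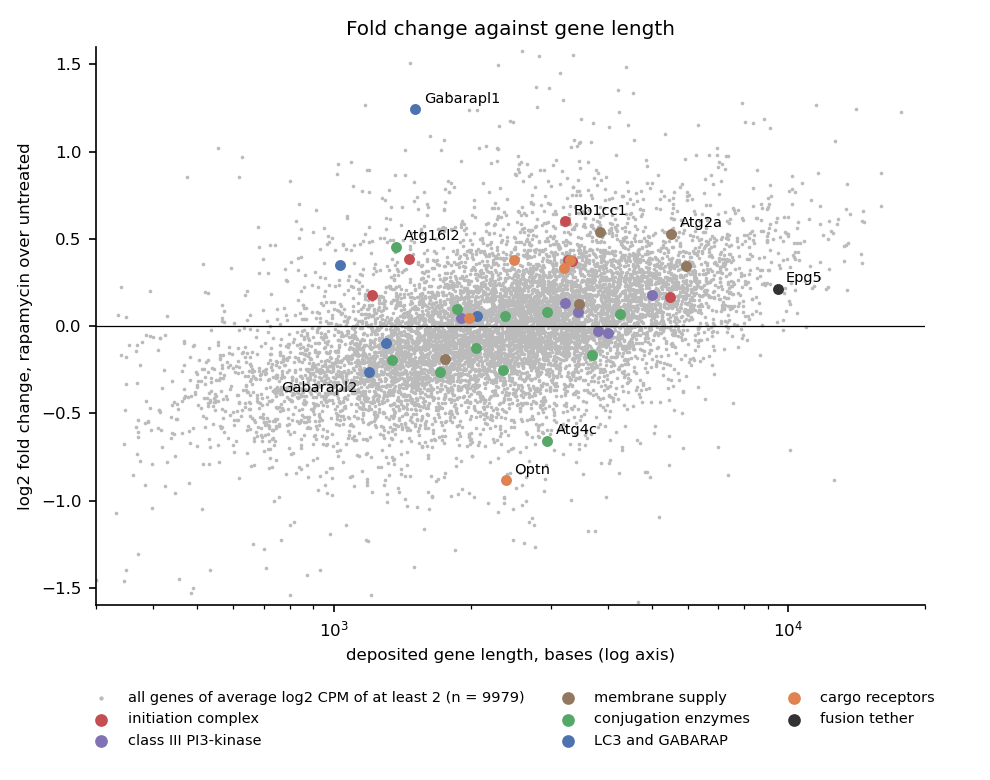
Log2 fold change against deposited gene length (log axis) for genes averaging 2 or more in log2 CPM (grey) and for the 39 tested autophagy genes (coloured by role); genes outside the axes are not drawn. Grey points rise from left to right, and Epg5, the longest member, lies at 0.22.

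RSEM's mean transcript length, weighted by isoform abundance, is a readout that the count-based fold changes did not use. Among the 39 tested members, all with at least 2 annotated transcripts, it was greater in every rapamycin library for 5 (all such genes 7.14%) and smaller for 1 (all such genes 9.98%). Besides Vmp1 and Gabarapl1, it went from 3583 ± 263 to 4030 ± 190 bases for Pik3r4 and from 1755 ± 115 to 1976 ± 3.67 bases for Atg4b (SD, n = 3). For Tax1bp1 it went from 3295 ± 22.5 to 3321 ± 9.34 bases and for Calcoco1 from 2601 ± 96.6 down to 2383 ± 138 bases. The estimates rest on few reads for Gabarapl1, and no test was made.

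Outside the list, 53 further genes of the pathway were read from the same fit, and 48 were tested. 12 rose (25.0%, beside 24.1% of all genes) and 7 fell (14.6%, beside 23.3%), with a median log2 fold change of −0.01. With the length correction 7 rose (14.6%, beside 20.2%) and 6 fell (12.5%, beside 18.2%). Bcl2, whose product binds Beclin 1 besides its role in survival, went from 190 ± 5.93 to 375 ± 11.8 CPM (0.98 ± 0.03, edgeR adjusted p = 3.3e-36, length-corrected 0.71). Tecpr1, a tether of the fusion step, went from 641 ± 15.8 to 804 ± 9.21 CPM (0.33, length-corrected 0.24), and Ccpg1, a receptor for the endoplasmic reticulum, from 99.5 ± 0.863 to 131 ± 3.83 CPM (0.40, length-corrected 0.39). The rises of Trp53inp1 (0.26) and Smcr8 (0.39) were not called after the correction, at 0.06 and 0.09. Phb2, a mitochondrial receptor, fell from 130 ± 0.713 to 108 ± 6.20 CPM (−0.28, length-corrected −0.12). By step, 6 of 19 regulators rose and 0 fell, 3 of 16 selective receptors rose and 5 fell, and 3 of 13 fusion genes rose and 2 fell. With the length correction these counts were 2 and 1 for regulators, 3 and 5 for selective receptors, and 2 and 0 for fusion genes.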

How the data were processed

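Each library had 1 deposited table. Libraries were made from poly(A) RNA with a directional kit, per the labels' protocols. STAR, RSEM and mm10 are named in the submitters' processing notes, without versions or an annotation release. Per the file headers, the deposited values are each gene's length, effective length, TPM, FPKM and expected counts (55487 genes, of which 55227 matched GENCODE vM21 on GRCm38, the assembly mm10 names). FPKM values, as deposited, were not used. The authors' expected counts divide shared reads: for 31 of the 40 members they were whole within 0.005 in every library, and the other 9 were off by at most 0.1%.

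Expected counts were rounded, filtered with filterByExpr and scaled with TMM. Rapamycin was set against untreated by edgeR's robust quasi-likelihood test, Benjamini-Hochberg adjusted over 11950 genes, threshold 0.05; the standard error is the log2 fold change over the square root of F. For the length correction, each library's departure from the 6-library mean log2 CPM was smoothed over log2 length (spline, df 5) and used as an offset. TPM ratios, shares and sums are descriptions and do not include the length correction. The rule named every member, with values per library for those past the threshold by at least 0.3 on the log2 scale; values per library of others were added after their values were seen. Of the other genes it named the 6 with the smallest adjusted p. The members, lists and correction were chosen with earlier results of these data known. The scripts were tested on simulated data. Software comprised edgeR 4.0.16, DESeq2 1.42.0 and limma 3.58.1 under R 4.3.3, with Python 3.11.15 and matplotlib 3.10.9 for tables and plots. Alternatives were other scalings, filters, DESeq2, limma, TPM scales, length and GC terms, a replicate block and leaving out each library. Some marker genes are not reported here.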

Additional observations from a re-analysis of the deposited data

How the results depend on the processing

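Over 20 alternatives, 10 of the 16 members called higher kept the call under every one (Ulk1, Atg13, Atg101, Rb1cc1, Wipi2, Atg2a, Atg16l2, Nbr1, Calcoco1 and Tax1bp1), and neither of the 2 called lower did. The same share over all genes was not worked out, so these counts describe the single members and say nothing about the list. The number of members called higher stayed between 11 and 17, and that of all genes between 1930 and 2906. The number called lower was 6 with upper-quartile factors and 6 without composition factors, 1 with DESeq2, and 4 with the length correction, with length and GC correction and with the replicate block plus length correction; leaving out 1 library gave 2 to 3 lower and 15 to 17 higher. Over all genes, the number lower was 3330 with upper-quartile factors, 3298 without composition factors and 2100 with DESeq2, against 2785. It was 2177 with the length correction, 2176 with length and GC correction and 2148 with the replicate block plus length correction. It was 1151 with log2(TPM + 1), 1137 with log2(TPM + 0.1) and 1801 with effective-length offsets. Leaving out 1 library gave 2486 to 2562 lower and 2579 to 2698 higher over all genes. Of the other pathway genes, 7 were higher with each of the 3 length-corrected fits, 3 were lower with either TPM scale, and leaving out 1 library gave 12 higher and 6 to 8 lower.

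Directions that turned, in the order length correction, length and GC correction, and replicate block with length correction, were Ulk2 (−0.050, −0.045 and −0.050), Epg5 (−0.15, −0.13 and −0.15), Atg12 (−0.074, −0.087 and −0.075) and Gabarap (0.070, 0.074 and 0.071). Ambra1 turned to −0.012 and, with the block, −0.014. With effective-length offsets Becn1 turned to −0.10, Atg4b to −0.12, Atg4d to −0.10 and Atg16l1 to −0.0084. On the TPM scales (pseudocount 1, then 0.1) Uvrag turned to 0.0060 and 0.0063, Atg4b to −0.0021 and −0.0021, and Atg10 to 0.023 and 0.022. Leaving out 1 library, Pik3r4 ranged from −0.060 to 0.0070 (without rapamycin replicate 2) and Atg10 from −0.43 (without rapamycin replicate 1) to 0.025 (without rapamycin replicate 3). Apart from Epg5, none of these turned values was called. The cause was not tested. Nothing in the labels says that the replicate numbers pair libraries. Correlations of deviations were −0.31, −0.08 and −0.16 for numbers 1, 2 and 3 over 7536 genes. As departures from means of only 3 libraries, they cannot decide whether libraries of a number were handled together. The replicate block alone left 16 members higher and 2 lower, with 2850 and 2743 genes over all. Depth limits Wipi1, Optn, Gabarapl1, Atg4c, Atg10 and Map1lc3a, the members below 5 CPM.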
